A study of Ambystoma mexicanum with 6 samples.

Results

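In whole retinas of the axolotl (Ambystoma mexicanum), some genes had a level at least 4-fold higher in the regrowing than in the uninjured retina. Such genes carried consecutive identifier numbers more often than expected in shuffled order. Of 56812 genes with a numbered identifier, 84 runs of 3 or more such genes were found, holding 290 genes. The 269 genes described here are those of the runs less 21 genes that were nearly silent in the uninjured retina, out of 99088 genes listed in all. The members were chosen by the measured levels themselves. A gene counted as rising if its mean over the regenerating pools was at least 1 CPM (the estimated reads of the gene scaled to a library total of 1 M reads) and at least 4 times its mean over the uninjured pools. Genes of the runs with a regenerating mean of at least 10 CPM and an uninjured mean of at most 1/128 of it were left out. The rise of the members is therefore a description of the choice and not a finding.

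The regenerating group consisted of 3 pools of retinas that had regrown for 27 days after surgical removal of the retina (retinectomy), and the uninjured group of 3 pools of the retinas that had been removed. Both groups came from the same 12 adult animals of the leucistic (pale-skinned) genotype, 4 animals to a pool. The labels match each regenerating pool by number to a pool of the same animals, which was read here as the uninjured pool of that number, and every result on pairs of pools rests on that reading. The uninjured retinas came from left eyes. They were also the earlier samples, so regrowth and the time between both collections cannot be told apart.

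Salamanders can rebuild a neural retina that was removed, and in newts the pigment epithelium is the known source of the new tissue. A regrowing retina holds dividing progenitors and young neurons. Neighbouring genes of a vertebrate genome can be expressed together when they are copies made by tandem duplication, when they share regulatory sequence, or when a single transcript was annotated as several gene models. Gene models are commonly numbered along the chromosomes of an assembly, but the sources used here give no position, strand or name for them, so a run is a run of numbers and models that overlap or belong to a single gene cannot be told apart. None (0) of the identifiers occurs in the RefSeq gene table of assembly UKY_AmexF1_1, and so no member could be named and the labelled tissue could not be checked against marker genes. In bulk tissue, more cells of a type and more RNA per cell cannot be told apart.

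The libraries held 29.4 to 34.2 M estimated reads in the regenerating group and 31.0 to 37.4 M in the uninjured group. At these depths 3 reads correspond to 0.0801 to 0.102 CPM. Uninjured pool 1 stood apart from uninjured pools 2 and 3 and held many members at higher levels, so the counts of runs and members and the member ratios are given with and without it.

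The numbers of the identifiers ran from 1 to 56812 with none (0) missing, so every gap in a run is a gene that did not rise. By the rule, 2846 of the numbered genes rose, or 5.01% of them. The runs held 10.2% of these. Of the 84 runs, 59 had 3 genes, 16 had 4, 5 had 5 and 4 had 6. Members remained in 82 runs. The 2 runs without a member were the 6 genes from AMEX60DD043905 to AMEX60DD043910 and a run of 4 genes, all of them nearly silent in the uninjured retina. In 8 further runs some genes were left out. Of the 101 numbered genes that met the condition for leaving out, 20.8% lay in runs.

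Rising genes stood next to each other more often than their overall share. Of the genes numbered directly after a rising gene, 17.2% rose, against 5.01% of all numbered genes. The 95% Wilson interval of 15.8% to 18.6% holds counting error only and takes the genes as independent. Without 1 library the share was 15.8% to 20.4%, which reaches beyond that interval. The share was 10.3% at a distance of 2 numbers, 8.50% at 3 and 6.32% at 5, and it was 5.09% at 100 and 4.8% at 1000 numbers. Levels bear on this, since a gene with few reads could not rise by the rule. Among following genes that reached 1 CPM in the regenerating retina, 40.1% rose at a distance of 1, against 14.2% of all numbered genes at that level. At a distance of 2 it was 25.2% and at 100 it was 14.4%.

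**Figure D1:**
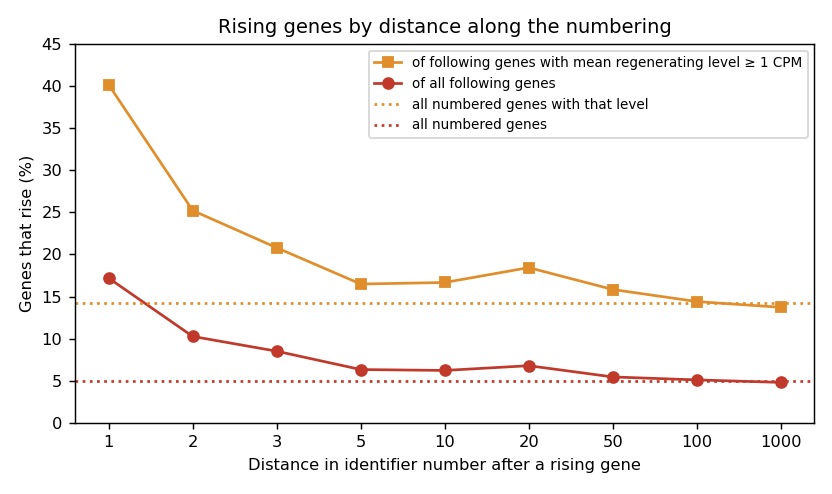
Share of genes (%) that rose by the rule, by their distance in identifier number after a rising gene, among all following genes (circles) and among those with a mean regenerating level of at least 1 CPM (squares); dotted lines give the same share over all numbered genes. Both shares are highest directly after a rising gene, at 17.2% and 40.1%, and come down to the overall shares of 5.01% and 14.2% by a distance of 100.

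If the order of the 56812 genes were shuffled, 6.78 runs would be expected, a value computed exactly from the number of rising genes, against the 84 found, a ratio of 12.4. Shuffling only the 19984 genes that reached 1 CPM in the regenerating retina, with their places kept, gave an expectation of 11.4 runs and a ratio of 7.39. The expected number of genes in runs was 20.7 over all genes and 35.0 over genes at that level, against 290 found. Without uninjured pool 1 there were 154 runs with 503 members, 261 of them among the 269, and 19.96 runs were expected over all numbered genes and 33.1 over those at that level. The ratios were then 7.72 and 4.65.

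**Figure D2:**
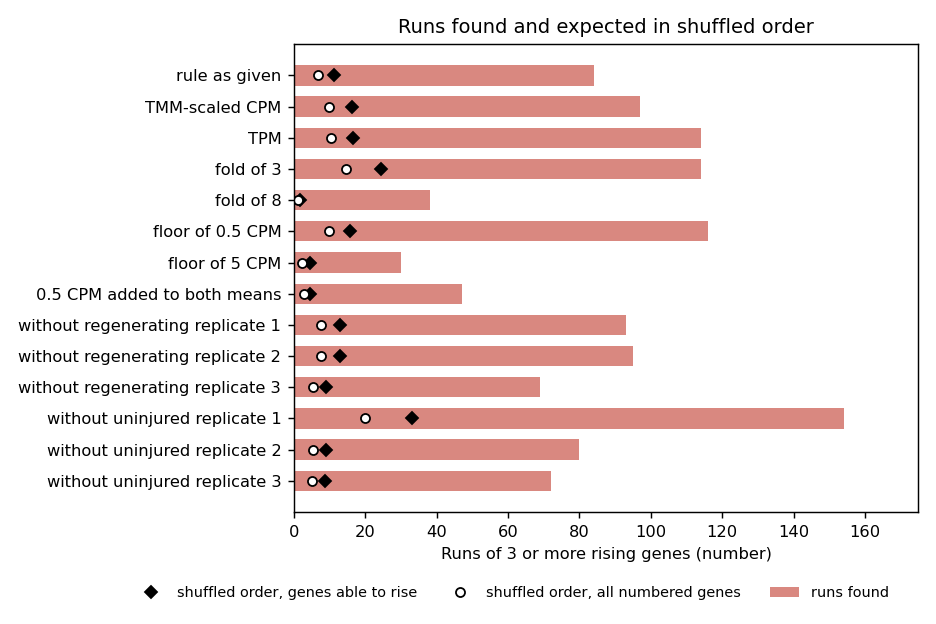
Number of runs of 3 or more rising genes (bars) under the rule as given and under other settings, with the number expected in shuffled order over all numbered genes (open circles) and over genes that reach the floor of the setting (diamonds). The bars end beyond both expectations in each setting shown, from 30 runs at a floor of 5 CPM to 154 without uninjured pool 1.

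Runs were not particular to rising genes. The mirrored rule found 100 runs of falling genes with 328 genes, or 10.03% of the 3270 falling numbered genes, close to the 10.2% of the rising genes. Their number was 9.80 times the expectation over all numbered genes and 6.11 times that over genes with at least 1 CPM in the uninjured retina. No rising run (0) touched a falling run, and 3 lay within 10 numbers of one. Falling runs numbered 102 without uninjured pool 1, where rising runs numbered 154. With TPM (the deposited abundance scaled for transcript length) in place of CPM, rising runs numbered 114 and falling runs 195.

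The runs were spread over the numbering. In the 11 full stretches of 5000 numbers there were 2 to 12 runs, the fewest from number 35001 and the most from number 5001. The share of genes that rose was also lowest and highest there among the full stretches, at 4.02% and 6.34%. The median gap between neighbouring runs was 467 genes and the largest 3557. Only 4 gaps were of 10 genes or fewer, and 1 gap was a single gene, AMEX60DD049493, between the run ending at AMEX60DD049492 and the next.

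The held-out pair of pools gives a reading of the runs in libraries not used for that search. The rule and its settings were chosen with earlier results of all libraries known, so the reading is a description. Runs were found again on 2 pairs of same-numbered pools, and their genes were read in the pair left out. The genes of runs counted here are those not nearly silent in the uninjured retina on the 2 pairs searched. Nearly silent genes of runs are counted with the other rising genes. With pair 3 left out there were 61 runs, and 180 of their 190 genes, or 94.7%, rose at least 4-fold to 1 CPM or more in that pair, against 88.1% of the other genes that rose on the same 2 pairs and 7.64% of all numbered genes. With pair 2 left out the share was 84.2%, or 223 of 265 genes, against 78.0% of the other rising genes and 6.93% of all. With pair 1 left out it was 38.7%, or 209 of 540 genes, against 41.8% of the other rising genes and 3.78% of all. Only 240 of these 540 genes were among the members described here. With pairs 3 and 2 left out, 182 of the 190 and 225 of the 265 genes were. All genes of a run rose in the pair left out in 51 of 61, 56 of 84 and 23 of 163 runs, with pairs 3, 2 and 1 left out. Genes of runs thus rose in the held-out pair about as often as the other rising genes, and far less often in pair 1 than in the others. The genes read differed between the pairs, so the lower share in pair 1 is not a share of the members. Of all numbered genes, 64.8% had a mean under 1 CPM over the regenerating pools, so most could not readily rise by the rule. The share among genes at or above 1 CPM was not computed for the held-out pairs, which leaves the other rising genes as the closer comparison.

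**Figure D3:**
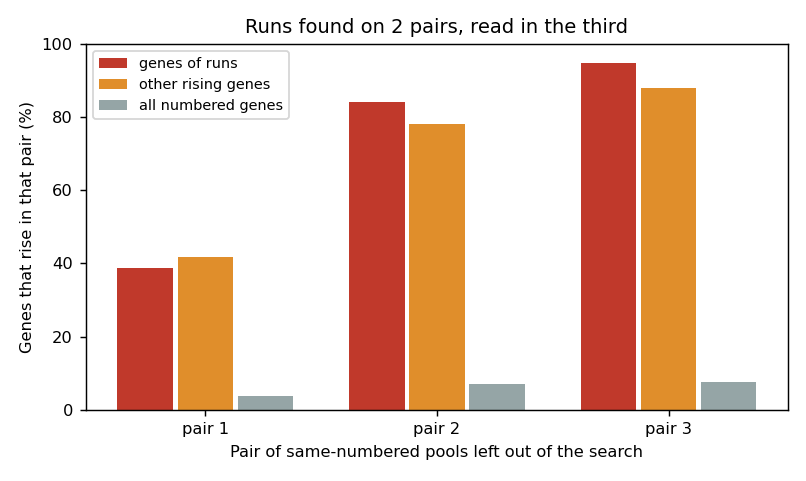
Share of genes (%) that rose at least 4-fold in the pair of same-numbered pools that was left out when runs were searched, for genes of runs, other rising genes and all numbered genes. Genes of runs that were nearly silent in the uninjured retina are counted with the other rising genes. Genes of runs stand at 94.7% in pair 3 and 84.2% in pair 2 but at 38.7% in pair 1, near the other rising genes of the same pair each time. The genes of runs differ between the pairs, and 182 of 190, 225 of 265 and 240 of 540 are members, with pairs 3, 2 and 1 left out.

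Levels of the members covered a wide range. By regenerating mean, 36 members lay from 1 to 2 CPM, 107 from 2 to 10, 97 from 10 to 100, 26 from 100 to 1000 and 3 above 1000 CPM. The ratio of the group means was 4 to 8 for 83 members, 8 to 16 for 79, 16 to 32 for 52 and 32 to 128 for 46, and 9 members, all with regenerating means under 10 CPM, were above that or had no uninjured read. Its median was 12.5, against 7.999 among the 2476 rising genes outside runs that were not nearly silent in the uninjured retina. Without uninjured pool 1 these medians were 18.9 and 12.98. The members together took 2.37%, 2.55% and 2.62% of the reads in the regenerating libraries and 0.596%, 0.264% and 0.261% in the uninjured ones. Their summed level was 25154 ± 1316 CPM in the regenerating and 3736 ± 1923 CPM in the uninjured pools (SD, n = 3 each), a ratio of 6.73, and 9.58 without uninjured pool 1. The member AMEX60DD016343 alone gave 9106 CPM of the regenerating and 2109 CPM of the uninjured sum, and 3151 CPM in uninjured pool 1. These ratios of sums thus lean on 1 gene.

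Every member had at least 1 read in each regenerating library, whereas 18, 21 and 21 members had none in the uninjured ones. Over the 3 uninjured libraries together, 3 members had no read and 34 had fewer than 10, so that the ratios of these are loosely held. The groups did not overlap for 258 members, against 33.7% of all numbered genes that reached 1 CPM in the regenerating retina. Without uninjured pool 1 they did not overlap for 263 members. Leaving out a pool can only raise this count, and the share of all genes was not computed there, so the change is not a trait of the members. The edgeR quasi-likelihood test, run on the same contrast, called 247 of the 266 members that passed its filter on low counts, against 20.4% of all genes tested. These counts follow from how the members were chosen and are given only to describe them. Of the 19 not called, 14 were called without uninjured pool 1, where 25.04% of all genes tested were called higher. With same-numbered pools as a replicate block 234 members were called, 232 of them among the 247, against 18.2% of all genes tested.

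Uninjured pool 1 was the highest of the uninjured pools for 177 members, pool 2 for 51 and pool 3 for 38. For 66 members pool 1 stood at 4 times the mean of pools 2 and 3 or above, and for 20 at 1/4 of it or below. The shares over all numbered genes and over the other rising genes were not computed, so these counts are only a description. Uninjured pool 1 bore on other genes too, since 4111 numbered genes rose without it, against 2846 with it. In pair 1, 197 members had a ratio of at least 4, against 257 in pair 2 and 265 in pair 3. In all 3 pairs the ratio was at least 4 for 186 members. These pair counts use the values that chose the members. The shares over the other rising genes were not computed for them either, so the lower count in pair 1 is not shown to be particular to the members. Of the 81 runs with 2 or more members, 37 held at least 1 member with the 4-fold excess in pool 1, and in 4 runs all members had it.

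**Figure D4:**
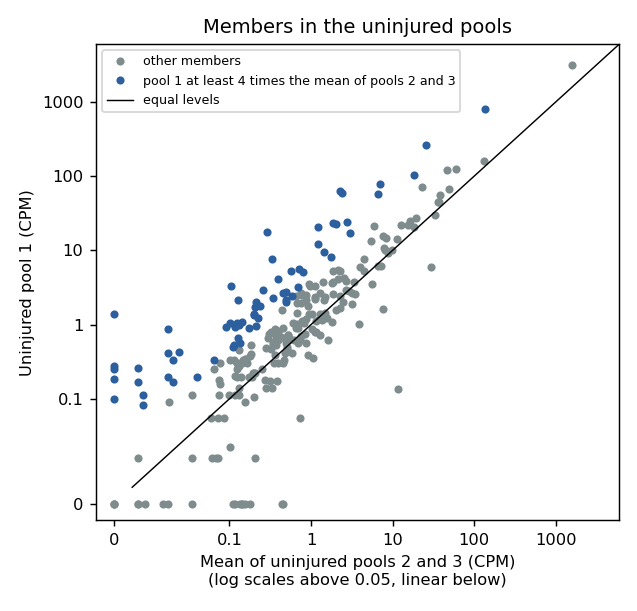
Level of each of the 269 members in uninjured pool 1 against its mean in uninjured pools 2 and 3, both in CPM on log scales that are linear below 0.05. Points above the line of equal levels are higher in pool 1, and the 66 members at 4 times the mean of the other pools or above are marked.

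The run AMEX60DD026773 to AMEX60DD026776 was 1 of these 4. AMEX60DD026773, the member second nearest to the 4-fold threshold, had 56.7, 117 and 82.0 CPM in regenerating pools 1, 2 and 3, against 58.5, 2.61 and 2.20 CPM in the uninjured pools. AMEX60DD026774 had 19.7, 57.7 and 40.8 CPM in the regenerating pools, against 17.6, 0.294 and 0.291 CPM in the uninjured ones. In pair 1 the levels of each gene were close, with the groups of AMEX60DD026773 overlapping, and in pairs 2 and 3 they were far apart. The other 2 genes of the run lay lower, with 0.817 to 6.19 CPM in the regenerating and 0 to 0.560 CPM in the uninjured pools, and their groups did not overlap. The opposite was seen in AMEX60DD036937 to AMEX60DD036939, a run chosen after its values were seen. There AMEX60DD036937 had 360.4, 305 and 394 CPM in the regenerating pools, against 6.02, 26.7 and 31.9 CPM in the uninjured ones, and its run mates were also lowest in uninjured pool 1, at 1.03 and 1.60 CPM.

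The longest runs with members had 6 genes each. In AMEX60DD049487 to AMEX60DD049492 most reads fell on the gene in second place. AMEX60DD049488, 4570.0 bases long, had 1053, 809 and 325 CPM in regenerating pools 1, 2 and 3, against 23.6, 2.10 and 1.58 CPM in the uninjured pools. It held 82.1% of the run's regenerating reads and was highest in pool 1 of both groups. AMEX60DD049490 had 45.05, 136 and 62.4 CPM in the regenerating pools, against 2.41, 0.748 and 0.420 CPM in the uninjured ones. AMEX60DD049489 had 18.8, 53.9 and 41.8 CPM in the regenerating pools, against 0.616, 1.10 and 0.355 CPM in the uninjured ones. The order of the regenerating pools thus differed within the run, since AMEX60DD049488 was highest in pool 1 and these 2 genes in pool 2.

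AMEX60DD049491 had 11.5, 36.1 and 11.5 CPM in the regenerating pools, against 1.09, 0.16 and 0.129 CPM in the uninjured ones. AMEX60DD049492 had 15.1, 18.6 and 18.2 CPM in the regenerating pools, against 1.23, 0.187 and 0.258 CPM in the uninjured ones. The first gene of the run, AMEX60DD049487, was the weakest, with 206 reads over the regenerating libraries and 1 over the uninjured ones. Its ratio of group means was 248. The summed reads, scaled to the library totals, gave a ratio of 224 with a 95% exact interval of 39.8 to 8901 from counting error alone. The groups did not overlap in any of the 6 genes. The gene before the run, AMEX60DD049486, had no read in any library, a count of 0. The gene after it, AMEX60DD049493, had 0.408, 0.5 and 0.294 CPM in the regenerating pools and 0.252, 0.107 and 0.0646 CPM in the uninjured ones, below the floor of the rule.

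The run AMEX60DD007879 to AMEX60DD007884 joined 1 longer gene to 5 short ones. AMEX60DD007879, 1788 bases long, had 28.4, 36.8 and 28.6 CPM in the regenerating pools, against 1.43, 0.561 and 0.786 CPM in the uninjured pools. The other 5 genes were 497 to 746 bases long. AMEX60DD007882 had 3.78, 8.19 and 8.39 CPM in the regenerating pools, against 0.532, 0.401 and 0.355 CPM in the uninjured ones. AMEX60DD007881 had 3.71, 6.81 and 6.11 CPM in the regenerating pools, against 0.224, 0.16 and 0.226 CPM in the uninjured ones. AMEX60DD007883 and AMEX60DD007884 shared an order of pools, lowest in regenerating pool 1 and highest in pool 3, at 3.03 and 4.91 CPM and at 3.54 and 6.75 CPM, against 0.291 to 0.560 CPM over both genes in the uninjured pools.

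Within that run AMEX60DD007880 went the other way among the pools. It had 2.71, 0.797 and 0.457 CPM in the regenerating pools, against 0, 0 and 0.312 CPM in the uninjured ones. Per length, the levels of the 5 short genes were 4.67 to 25.9 TPM in the regenerating mean, below the 39.3 TPM of AMEX60DD007879. The run was bounded by AMEX60DD007878, at 0.680, 0.219 and 0.175 CPM in the regenerating and 0.896, 0.801 and 0.775 CPM in the uninjured pools, lower in every regenerating than in any uninjured pool. On its other side AMEX60DD007885, 11978 bases long, had 16.6, 22.8 and 23.4 CPM in the regenerating and 23.4, 20.4 and 22.3 CPM in the uninjured pools, and its groups overlapped. Its log2 difference of 0.09 in the edgeR fit turned to -0.08 with library totals and to -0.17 on log2(TPM + 0.5).

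The run AMEX60DD006070 to AMEX60DD006075 was low throughout. AMEX60DD006070 led it with 20.2, 22.2 and 27.8 CPM in the regenerating pools, against 3.73, 1.76 and 1.03 CPM in the uninjured pools. AMEX60DD006073, 4436 bases long, had 8.23, 11.1 and 10.8 CPM in the regenerating pools, against 0.196, 0.0534 and 0.194 CPM in the uninjured ones. The remaining 4 genes had 0.612 to 4.05 CPM in the regenerating and 0 to 0.336 CPM in the uninjured pools. In each of these 4 the regenerating pools followed the same order, lowest in pool 1 and highest in pool 3. Both genes beside the run were higher in the regenerating means without reaching 4-fold. AMEX60DD006069 had 218, 197 and 220.2 CPM in the regenerating pools and 150.3, 75.8 and 78.9 CPM in the uninjured ones. AMEX60DD006076 had 2.14, 5.06 and 9.0 CPM in the regenerating pools and 6.44, 0.347 and 0.355 CPM in the uninjured ones, so that its groups overlapped through uninjured pool 1 alone.

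**Figure D5:**
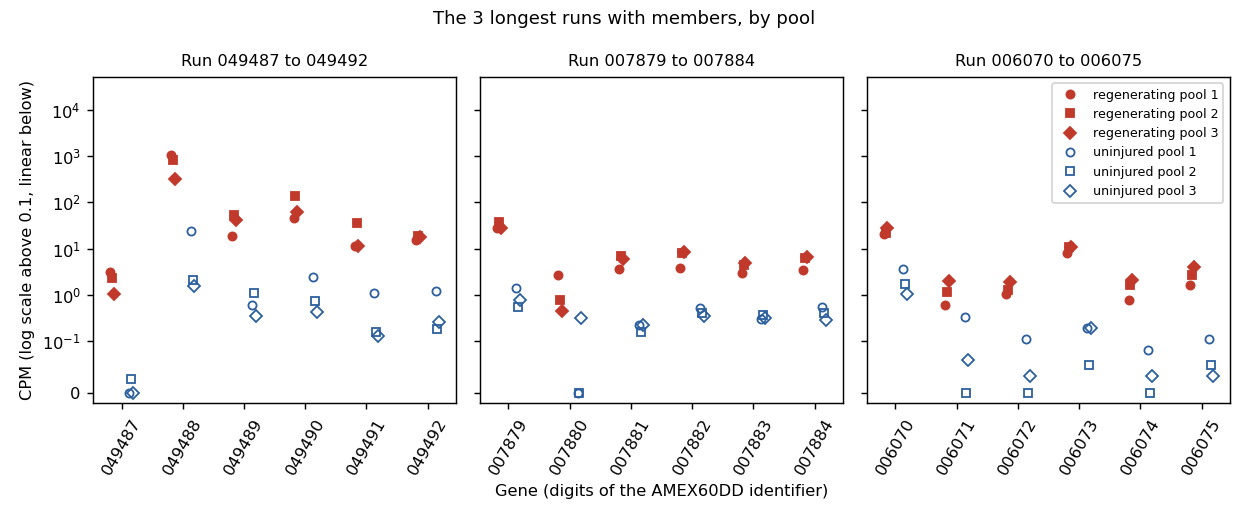
CPM of each gene of the 3 longest runs with members in the 3 regenerating (filled) and 3 uninjured (open) pools, on a scale that is logarithmic above 0.1 and linear below. The regenerating pools lie above the uninjured ones in each gene, and AMEX60DD049488 stands far above its run mates, up to 1053 CPM in regenerating pool 1.

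The runs with most reads were led by 1 or 2 genes. In AMEX60DD016341 to AMEX60DD016343, AMEX60DD016343 was the member with the highest level, at 10130.5, 8372 and 8816 CPM in the regenerating pools, against 3151, 1606 and 1571 CPM in the uninjured ones. Its ratio of means was 4.32. Without it the members together took 1.36%, 1.72% and 1.74% of the reads in the regenerating libraries and 0.281%, 0.103% and 0.104% in the uninjured ones. AMEX60DD016342 had 1925, 2755 and 2351 CPM in the regenerating pools, against 790.2, 145 and 129 CPM in the uninjured ones. Both were highest in pool 1 of the uninjured group, and their groups did not overlap. AMEX60DD016341, 384 bases long, had 9.98, 1.22 and 3.56 CPM in the regenerating pools, against 0.204, 0.135 and 0.0979 CPM in the uninjured ones, and shared the order of the regenerating pools with AMEX60DD016343 but not with AMEX60DD016342.

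AMEX60DD012285 led its run of 3 with 1457, 2486 and 2384 CPM in the regenerating pools, against 71.7, 26.6 and 19.7 CPM in the uninjured pools. Its run mates were both lowest in regenerating pool 1 and highest in pool 2, as it was. AMEX60DD012286, 434 bases long, had 3.88, 9.0 and 7.30 CPM in the regenerating pools, against 0.0280, 0.107 and 0.0323 CPM in the uninjured ones. AMEX60DD012287 had 3.06, 7.25 and 7.19 CPM in the regenerating pools, against 0.196, 0.0267 and 0.0646 CPM in the uninjured ones. The leading gene took 99.4% of the regenerating reads of the run.

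The run AMEX60DD009935 to AMEX60DD009937 owed its reads to AMEX60DD009937, which is no member because it was nearly silent in the uninjured retina. AMEX60DD009935 had 21.9, 14.4 and 14.5 CPM in the regenerating pools, against 5.32, 0.561 and 0.581 CPM in the uninjured ones. AMEX60DD009936 had 1.29, 1.06 and 0.964 CPM in the regenerating pools, against 0.252, 0 and 0.129 CPM in the uninjured ones. Both members were highest in pool 1 of both groups, whereas AMEX60DD009937 was lowest in uninjured pool 1, at 1.20 CPM beside 7.16 and 7.82 CPM.

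Other members with high levels were AMEX60DD043188 and AMEX60DD054940. AMEX60DD043188 had 1025, 798 and 889.9 CPM in the regenerating pools, against 259, 25.1 and 26.6 CPM in the uninjured ones. AMEX60DD043189 after it had the same order of pools in the regenerating group, with 513, 399 and 494 CPM, against 57.9, 6.09 and 7.27 CPM in the uninjured pools. The last gene of that run, AMEX60DD043190, had the second widest spread of the members that reached 10 CPM, at 21.2, 5.06 and 65.0 CPM in the regenerating pools, against 0.616, 2.38 and 0.840 CPM in the uninjured ones. AMEX60DD054940 had 180.2, 638 and 1029 CPM in the regenerating pools, against 160.2, 136 and 129 CPM in the uninjured ones, so that regenerating pool 1 lay just above the uninjured range.

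The 5 runs of 5 genes, described here after their values were seen, combined high and low genes. In AMEX60DD010721 to AMEX60DD010725, AMEX60DD010723 had 10.8, 103 and 95.2 CPM in the regenerating pools, against 0.560, 0.610 and 0.763 CPM in the uninjured ones. AMEX60DD010722 beside it had 0.715, 7.70 and 7.60 CPM in the regenerating pools, against 0.0560, 0.107 and 0.0646 CPM in the uninjured ones. These 2 neighbours shared a low regenerating pool 1 that AMEX60DD010724, at 343, 263 and 294 CPM in the regenerating and 102, 15.4 and 20.9 CPM in the uninjured pools, did not have. AMEX60DD041969 to AMEX60DD041973 was the most even of the 5 runs per length, with regenerating means of 19.0 to 79.1 TPM and uninjured means of 0.607 to 2.62 TPM. Its genes of 331 and 328 bases alternated with genes of 1966 to 2220.0 bases.

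AMEX60DD014032 to AMEX60DD014036 held 2 genes with ratios of 75.1 and 89.6 beside 2 with ratios of 5.14 and 4.63. The pair with the smaller ratios had the higher levels per length, with 172 and 113 TPM in the regenerating and 32.4 and 27.5 TPM in the uninjured mean. AMEX60DD031634 to AMEX60DD031638 contained the member nearest the 4-fold threshold, AMEX60DD031636, with 166, 181 and 184 CPM in the regenerating pools, against 55.6, 36.4 and 40.1 CPM in the uninjured ones, a ratio of 4.01. AMEX60DD038399 to AMEX60DD038403 was led by AMEX60DD038400, with 307, 267 and 291 CPM in the regenerating pools, against 119, 46.5 and 45.5 CPM in the uninjured ones. Just outside the threshold, among genes beside a run, lay AMEX60DD032706 with a ratio of 3.54 and AMEX60DD025542 with 3.52. At the floor of 1 CPM, the lowest members had regenerating means of 1.01 and 1.03 CPM, and the highest genes beside a run that were at least 4-fold higher but missed it had 0.944 and 0.859 CPM. At the condition for leaving out, the nearest gene kept had a ratio of 126 and the nearest left out 132.

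Of the members with an uninjured read, those with the highest ratio rested on about 1 estimated read. AMEX60DD000734 had a ratio of group means of 837. Rounded to whole reads it had 927 over the regenerating libraries and 1 over the uninjured ones, where the estimate was somewhat above 1. Scaled to the library totals, these rounded reads gave a ratio of 1009 with a 95% exact interval of 181 to 39904 from counting error alone. Rounding the uninjured estimate down raised this ratio. AMEX60DD029810 had a ratio of group means of 282. Its 239 reads and 1 read, summed and scaled likewise, gave a ratio of 260.2 with an interval of 46.3 to 10320. AMEX60DD029811, the member with the widest spread among the regenerating pools of those that reached 10 CPM, followed it with 3.37, 187 and 304 CPM in the regenerating pools, against 0.138, 14.9 and 8.34 CPM in the uninjured ones. It was low in pool 1 of both groups, so the groups overlapped while each pair had a ratio well above 4. The next gene, AMEX60DD029812, had 8.30, 0.184 and 0.121 CPM in the regenerating pools, against 0, 0.106 and 0.127 CPM in the uninjured ones, and so was a member through regenerating pool 1 alone.

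A single pool also carried the run AMEX60DD000278 to AMEX60DD000280, described after its values were seen. Its 3 genes, 414, 401 and 312 bases long, had 21.5, 22.0 and 21.8 CPM in regenerating pool 3 and 0.851 to 5.04 CPM in regenerating pools 1 and 2, against 0 to 5.54 CPM in the uninjured pools. The groups overlapped in all 3 genes.

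Run mates differed in level. The values here are over all 290 genes of the 84 runs, with the 21 nearly silent genes that are no members. Compared per length, the regenerating mean of the highest gene of a run was a median of 8.66 times that of the lowest, from 1.21 times to 1081 times. The widest range was that of the run led by AMEX60DD009937, which is no member. In 28 runs it was under 4 times and in 10 runs at least 100 times. The gene with most regenerating reads took a median of 66.6% of the reads of its run and at least 90% in 10 runs. It was the first gene in 30 runs, the last in 22 and an inner one in 32, and it was the longest of its run in 45.

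Short genes were frequent in runs. Of the members, 52 were under 1000 bases, or 19.3%, against 11.8% of rising genes outside runs that were not nearly silent in the uninjured retina and 8.10% of all numbered genes with at least 1 CPM in the regenerating retina. Falling runs had about the same share, 20.1%. The median length was 2473 bases for the members, 3171 for these rising genes outside runs and 3437 for all numbered genes at that level. Short genes occurred in 37 of the 84 runs and had the most regenerating reads in 1 of them, with reads not scaled for length. That run, AMEX60DD000278 to AMEX60DD000280, held short genes alone, so a short gene had to lead it. The regenerating mean had a median of 8.98 CPM in the members and 11.99 CPM in these rising genes outside runs, and per length the medians were 10.8 and 9.30 TPM. With the nearly silent genes counted in both, the medians were 10.06 CPM for the 290 genes of runs and 12.8 CPM for the 2556 rising genes outside them.

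Within groups, the deviations of neighbouring members had a higher median correlation than those of members from different runs. Deviations of log2(CPM + 0.5) from the group mean were correlated over the 6 libraries, which leaves few independent values for each pair of genes, so the correlations are descriptions. For the 185 pairs of adjacent members of a run the median correlation was 0.65, against 0.25 for the 35708 pairs of members from different runs. The correlation was positive for 81.6% of the adjacent pairs and 63.9% of the others. Among members with a regenerating mean of at least 10 CPM the medians were 0.60 for 45 pairs and 0.33 for 7794 pairs. There the shares of positive pairs were close, at 68.9% and 66.2%. All pairs share libraries and depth, and reads that Salmon divided between similar or overlapping models cannot be told apart. Regenerating pool 1 was the lowest for 156 of the members, pool 2 for 72 and pool 3 for 41. All members of a run were lowest in the same regenerating pool in 28 of 81 runs, and in 22 of these it was pool 1. With pool 1 lowest for most members, unrelated genes would also agree in part. The number of runs expected from this was not computed, so the count is only a description.

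Genes beside the runs were silent or low about as often as other genes. Of the 168 flanking places, 111 or 66.1% held a gene under 1 CPM in the regenerating mean, against 68.2% of all numbered genes that did not rise. No read in any library was counted for 35 of them, or 20.8% of the places, against 21.7% of those genes. Another 29 of the 111 had reads and were at least 4-fold higher in the regenerating mean, below the floor. Some of these rested on very few reads, such as AMEX60DD049497, with a regenerating mean of 0.0122 CPM and an uninjured mean of 0. The share among all numbered genes below the floor was not computed, so the count is only a description. Of the 57 flanking genes at or above the floor, 14 were 2-fold to 4-fold higher, 27 changed less than 2-fold and 16 were at least 2-fold lower in the regenerating retina. The shares higher and lower were 24.6% and 28.1%, against 14.9% and 20.7% of all numbered genes at that level that did not rise.

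Transcript length, which the rule did not use, differed in the members about as often as in all genes tested. The length that Salmon weights by transcript abundance was tested with limma on log2 length over all genes with at least 20 reads in every library and a length that varied by over 0.5 bases. Of 58 members tested, 2 were longer, against 1.83% of all genes tested, and 1 was shorter, against 4.69%. AMEX60DD041432 measured 3040.0, 2923 and 3065 bases in the regenerating pools, against 2761 bases in each uninjured pool, a log2 difference of 0.12 (SE 0.02, limma adjusted p = 0.0409). It had 546, 271 and 229 reads in the regenerating pools but 50.2, 37.6 and 27.3 in the uninjured ones. Its uninjured lengths thus rest on few reads, and the effect of depth was not tested. AMEX60DD024620 measured 10938, 10951 and 10941 bases in the regenerating pools, against 10077, 9829 and 10364 bases in the uninjured ones (log2 difference 0.12, SE 0.02, limma adjusted p = 0.0481). AMEX60DD016343, the member with most reads, measured 1108, 1133 and 1125 bases in the regenerating pools, against 1160.3, 1172 and 1167 bases in the uninjured ones (log2 difference -0.06, SE 0.01, limma adjusted p = 0.0492).

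The lengths of the groups did not overlap in these 3 genes. An unadjusted p under 0.05 was found for 16 of the 58 members, or 27.6%, against 25.2% of all genes tested. With same-numbered pools as a replicate block none (0) of the 58 members was called by limma, at adjusted p of 0.128, 0.141 and 0.0924 for these 3. The share of all genes called under the block was 0.186% longer and 0.489% shorter. The unadjusted p was under 0.05 for 13 members with the block, or 22.4%, against 21.4% of all genes. Without either uninjured pool 2 or uninjured pool 3 or regenerating pool 3, none (0) was called by limma. In these fits 11, 12 and 10 members had an unadjusted p under 0.05, or 18.6%, 18.8% and 17.2% of those tested, against 18.6%, 19.1% and 25.6% of all genes. Without uninjured pool 1 none (0) was longer and 2 were shorter, without regenerating pool 1 none (0) and 3, and without regenerating pool 2 only AMEX60DD041432 was called, as longer. Over all genes tested, the fits without 1 library called 0.463% to 1.87% longer and 0.601% to 4.15% shorter. A larger difference was not called. AMEX60DD031636 measured 3329, 4057 and 4490 bases in the regenerating pools, against 5659, 5646 and 5842 bases in the uninjured ones, at a limma adjusted p of 0.0747.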

How the data were processed

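RNA of 6 retina pools was sequenced. Per the labels' protocols, RNA was extracted and libraries were made with a NEBNext Ultra II kit at a sequencing provider, and the submitters' processing notes name Trimmomatic 0.38 and Salmon 0.13.1. The sources used here do not name the build, the annotation or the strand setting. Per the file headers, each deposited sample file lists for every gene its transcript length, TPM and estimated count. Of the deposited estimated counts 30.7% to 34.2% were not whole within 0.001 reads. The deposited table of the whole series holds rescaled TPM and was not used.

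CPM was computed from the estimated counts and library totals. Runs were found among identifiers of AMEX60DD plus digits with Python 3.11.15 and pandas 2.3.3. The expectation in shuffled order is a closed form from the hypergeometric distribution and was checked on simulated orders. Estimated counts rounded to whole numbers were tested with edgeR 4.0.16 in R 4.3.3 (filterByExpr with a minimum count of 10, TMM, robust quasi-likelihood test), and log2 transcript length with limma 3.58.1, each over the 3 regenerating and 3 uninjured pools, with Benjamini-Hochberg adjustment over all genes tested at 0.05. Both tests were checked on simulated data. DESeq2 1.42.0 was an alternative. The labels match the animals of each regenerating pool to a numbered sample, read here as the uninjured pool of that number, and a replicate block was tried. Deviations of same-numbered pools correlated at -0.05, 0.05 and 0.04 across genes. Between libraries of a group, chi-square per gene was 9.36 to 125 over genes with at least 10 reads, so none was counted as a repeat. Each library is 1 pool, and the spread measured is that between pools.

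Members, lists and settings were chosen with earlier results of these data known. Named genes are the members and flanking genes of the 3 longest runs with members (a run of 6 without any was skipped), the members of the 3 next runs by summed regenerating level, the 6 highest members, those with the 2 highest and 2 lowest ratios, those nearest the threshold, and the 2 with the widest regenerating spread among members of at least 10 CPM. Other runs and genes are said to have been described after their values were seen, and the run mates of these genes were added likewise.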

Additional observations from a re-analysis of the deposited data

How the results depend on the processing

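The number of runs (84) and of members (269) stayed within 1.5 times with TMM-scaled CPM, TPM, a fold of 3 and a floor of 0.5 CPM. These gave 97 to 116 runs and 306 to 383 members. Ignoring gaps could change nothing, since no identifier number is missing. Of the 269 members, 215 were shared with TPM and 267 with TMM-scaled CPM. The looser fold of 3 and floor of 0.5 CPM keep all 269 by construction. Runs and members numbered 38 and 115 at a fold of 8, 30 and 87 at a floor of 5 CPM, 47 and 141 with 0.5 CPM added to both means, and 25 and 97 for runs of 4 or more, settings that by construction let fewer genes pass. Leaving out 1 library gave 69 to 154 runs and 215 to 503 members, the highest without uninjured pool 1. Shared members then numbered 202 (without regenerating pool 3) to 261 (without uninjured pool 1). The number expected in shuffled order (6.78) was then 5.15 to 19.96. Over genes with at least 1 CPM it was 11.4 with all libraries and 8.65 to 33.1 without 1 library. The share of genes directly after a rising gene that rise was 15.8% to 20.4%. Leaving out a pair of same-numbered pools, a setting chosen after seeing the data, gave 163 runs, 540 members, an expectation of 20.9 and a share of 21.3% without pair 1, and 61 runs, an expectation of 3.95 and a share of 15.2% without pair 3. The ratio of summed member levels, 6.73, was 9.58 without uninjured pool 1. The cause was not tested.

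Of the members, 216 to 258 were called higher without 1 library, where 12.9% to 25.04% of all genes tested were. Under the other settings 221 to 261 members were called higher, where 8.48% to 20.2% of all genes tested were. The main fit called 247 members and 20.4% of all genes tested. None (0) of the members was called lower, and 234 were called higher with the replicate block. Without uninjured pool 1, 5 of the 247 were not called. The flanking gene AMEX60DD007885, at a log2 difference of 0.0862, had -0.0783 with library totals and -0.171 on log2(TPM + 0.5). Without 1 library it was -0.00723 (without regenerating pool 3) to 0.246. Members with longer (2) and shorter (1) transcripts numbered 0 and 0 with the replicate block, 3 and 2 at a mean of 100 reads, and 1 and 1 at 100 reads in every library. The shares of all genes tested were, in the same order, 0.186% and 0.489%, 2.03% and 5.21%, and 2.16% and 6.49%. Without 1 library the longer and shorter members numbered 0 to 1 and 0 to 3, against 0.463% to 1.87% and 0.601% to 4.15% of all genes tested. The series table was not run, since its values are not counts. Levels under the limit of 3 reads in a library, 0.0801 to 0.102 CPM, rest on too few reads for a firm ratio.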
